A study of Homo sapiens with 16 samples.

Results

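The 35 genes described here encode chaperones and folding enzymes of the endoplasmic reticulum (ER), the machinery of ER-associated degradation (ERAD) and part of the translocation and export apparatus. They were chosen by name and function, with earlier results of these data known. All 35 were present among the 13559 genes of one expression table and the 14024 genes of the other. The RNA came from LN229, an established human glioblastoma cell line, so the data describe a single line grown alone in culture. Cells were kept in regular culture (medium with 10% fetal bovine serum) or in ischemic culture, a mimic of poorly perfused tumor that combined 2 mM glucose, 0.1 mM glutamine, 1% serum and 1% oxygen. The first experiment held regular and ischemic cultures without added compound. The second held both cultures with the solvent DMSO, with VX745, an inhibitor of the stress kinase p38, or with MK25, an inhibitor of its substrate kinase MK2. Each of the 8 groups had 2 libraries, 16 in all. The study's methods list VX745 at 2 µM and MK25 at 10 µM for cell treatments without naming the RNA libraries, and the hours in culture before RNA extraction were not given in the sources used here. Nothing in the labels says that the replicates were separate cultures, so the p-values measure only the spread between these libraries, which may be technical.

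Proteins bound for secretion or for membranes enter the ER through the SEC61 channel, fold with the help of the HSP70 chaperone BiP (HSPA5), the HSP90 chaperone GRP94 (HSP90B1), the lectins calnexin and calreticulin and the protein disulfide isomerases, and leave in COPII vesicles. Chains that fail to fold are recognised by lectins such as OS9 and the EDEM proteins, moved back across the membrane at the SEL1L-SYVN1 ubiquitin ligase and degraded by the proteasome. When unfolded proteins build up, the sensors IRE1α (ERN1), PERK (EIF2AK3) and ATF6 start the unfolded protein response (UPR), whose factors XBP1, ATF6 and ATF4 switch on many of the genes described here. Folding draws on ATP, on sugar for glycans and on an oxidant for disulfide bonds.

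ATF6 and XBP1 are known to act through the ER stress response element (ERSE) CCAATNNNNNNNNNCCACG and its relative ERSE-II, ATTGGNCCACG. RefSeq promoter sequences of GRCh38.p14, from 250 bases before to 50 bases after a transcript start, were matched for 31 of the 35 genes; PDIA3, FKBP14, DERL1 and SEC24D had no match. Read on both strands, an ERSE was found in 6 of these 31 promoters and in 0.0806% of all 27305 promoters in the set. An ERSE-II was found in 3 of the 31 and in 0.0549% of all promoters. The stretches that hold them are shown because their genes moved in opposite directions under ischemia, as described below. Each is written 5′ to 3′ on the gene's own strand, capitals mark the ERSE or ERSE-II, and a motif on the opposite strand appears as its reverse complement. All lie upstream of the start.
HSPA5 (chr9:125241376-125241424, minus strand, ERSE): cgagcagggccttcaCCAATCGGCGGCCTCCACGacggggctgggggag
HSP90B1 (chr12:103930201-103930354, plus strand, ERSE in 2 places): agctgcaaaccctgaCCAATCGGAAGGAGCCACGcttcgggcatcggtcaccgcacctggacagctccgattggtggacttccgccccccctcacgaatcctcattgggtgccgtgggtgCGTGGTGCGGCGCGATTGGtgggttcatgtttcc
CANX (chr5:179698763-179698811, plus strand, ERSE): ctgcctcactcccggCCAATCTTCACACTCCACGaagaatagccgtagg
CALR (chr19:12938369-12938417, plus strand, ERSE): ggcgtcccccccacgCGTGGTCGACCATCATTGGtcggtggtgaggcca
CRELD2 (chr22:49918539-49918587, plus strand, ERSE): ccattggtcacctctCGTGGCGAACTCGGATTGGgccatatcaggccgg
ERO1B (chr1:236282168-236282208, minus strand, ERSE): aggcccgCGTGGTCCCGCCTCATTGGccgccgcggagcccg
HERPUD1 (chr16:56932010-56932050, plus strand, ERSE-II): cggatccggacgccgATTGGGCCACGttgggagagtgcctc
HYOU1 (chr11:119057259-119057405, minus strand, ERSE-II in 2 places): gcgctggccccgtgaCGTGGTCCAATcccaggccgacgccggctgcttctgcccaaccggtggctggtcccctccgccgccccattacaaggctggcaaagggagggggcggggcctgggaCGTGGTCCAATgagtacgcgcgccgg
SDF2L1 (chr22:21642099-21642139, plus strand, ERSE-II): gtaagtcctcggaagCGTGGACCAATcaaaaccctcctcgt
The CANX stretch precedes a transcript start that lies within the annotated span of the gene (chr5:179678656-179731641). A shorter core of the UPR element, TGACGTG, was found in 1 of the 31 promoters, that of HYOU1, where it overlaps the first ERSE-II, and in 2% of all promoters. The core of the C/EBP-ATF response element, TGATGNAA, was found in 1, that of HERPUD1, and in 3.67% of all promoters. A match describes these letters only and says nothing about binding.

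The deposited values were log2 normalized CPM (counts scaled to the library's size), computed from 22346073 to 28373993 reads per library in the first experiment and 20122017 to 37562668 in the second. No member was close to the detection limit, since the fewest reads for any member in any library was 100, for PDIA5. All 8 markers fixed for the line's type were listed. VIM and CD44 were between 9.57 and 12.77 log2 CPM in all 16 libraries. VIM was higher in ischemic culture, at 12.10 to 12.77 against 11.08 to 11.40 in regular culture. Others were lower in ischemic culture, where SOX2 was 3.13 to 3.93 against 5.59 to 6.48 in regular culture, OLIG2 0.94 to 2.85 against 2.62 to 3.09 with some overlap, NES 8.40 to 9.07 against 9.57 to 9.90 and S100B 4.54 to 4.96 against 5.21 to 5.47. GFAP, the astrocyte filament gene, was low at -0.36 to 1.06, and EGFR was higher in ischemic culture. No endothelial or epithelial marker was listed. The leukocyte list was represented by 1 of 4 genes, CD68 at 4.47 to 5.27 in regular and 5.18 to 6.01 in ischemic culture, and the neuronal list by 1 of 2, SYT1 at 3.69 to 4.08 in regular and 5.38 to 6.31 in ischemic culture. These genes moved with the culture condition, and their part in the results was not tested. The hypoxia gene CA9 was at most 2.30 in regular culture and at least 6.86 in ischemic culture, so each library was on the side of its label. The regular libraries were not alike, however: CA9 was 2.14 and 2.30 in those with MK25, against -1.77 and 0.27 with DMSO and -1.37 and -2.01 with VX745. NDRG1, another hypoxia gene, was 6.26 and 6.40 with MK25 against 4.93 to 5.19 in the other regular libraries of that experiment, and VEGFA was 6.34 and 6.39 against 5.33 to 5.47. Both regular MK25 libraries thus stood above the other regular ones, which touches the regular MK25 comparison, the MK25 ischemia comparison and the MK25 interaction. The part of this difference in those results was not tested.

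Per length of transcript, the 35 genes covered a wide range of levels in regular culture with DMSO. P4HB, the beta subunit of prolyl 4-hydroxylase and a protein disulfide isomerase, was the most abundant at 725 ± 23.8 CPM per kilobase (SD, n = 2). Calreticulin (CALR, 510 ± 27.2) came next and did not overlap with its neighbours in that order. GRP94 (HSP90B1, 320 ± 30.2), calnexin (CANX, 268 ± 14.3) and BiP (HSPA5, 235 ± 4.25) followed. At the low end stood PDIA5 (3.90 ± 0.361), TXNDC5 (3.89 ± 1.76) and the oxidase ERO1B (3.27 ± 0.134), of which TXNDC5 differed from the other two by less than its own spread. The wide spread of TXNDC5, a disulfide isomerase, came from the second regular DMSO library, which stood at 2.97 log2 CPM against 3.92 in the first. In ischemic culture with DMSO, HSPA5 (398 ± 8.17 CPM per kilobase) stood above HSP90B1 (382 ± 6.35) and P4HB reached 1122 ± 19.7.

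Ischemia without added compound moved the 35 genes in both directions. In total 17 genes were higher and 13 lower in ischemic than in regular culture (limma, Benjamini-Hochberg adjusted p under 0.05), and 5 did not pass. Of all 13559 genes tested, 35.2% were called higher and 35.2% lower, so the share of members called higher (17 of 35) was above and the share called lower (13 of 35) close to the background. The median log2 fold change of the members was 0.19, against -0.01 over all genes. The summed share of the members in all reads was 1.07% and 1.08% in the regular libraries and 1.22% and 1.18% in the ischemic libraries. In bulk RNA, fewer cells of a type and less RNA per cell cannot be told apart. The split was 16 higher and 13 lower after median centring, 13 and 14 in a precision-weighted fit to the recovered reads (voom) scaled to library totals, and 13 and 15 with quantile normalization, where the median turned to -0.01.

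Repeating the contrast in the second experiment with DMSO, on libraries the first did not share, gave 18 members higher and 11 lower, against 34.4% and 35.2% of all 14024 genes. The members' median was 0.20 and that of all genes -0.01. In both experiments 16 members were called higher, 10 were called lower and none was called in opposite directions. The share of all genes called alike in both experiments was not counted, so these joint counts have no background beside them. Across the 35 members the log2 fold changes of the untreated and DMSO comparisons correlated with Pearson's r = 0.907 (Spearman's rho = 0.919), a description across genes that are not independent replicates. The DMSO split was sensitive to scaling, at 11 higher and 12 lower after quantile normalization and 11 higher and 16 lower with voom, which put the median of all genes at -0.23.

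**Figure D1:**
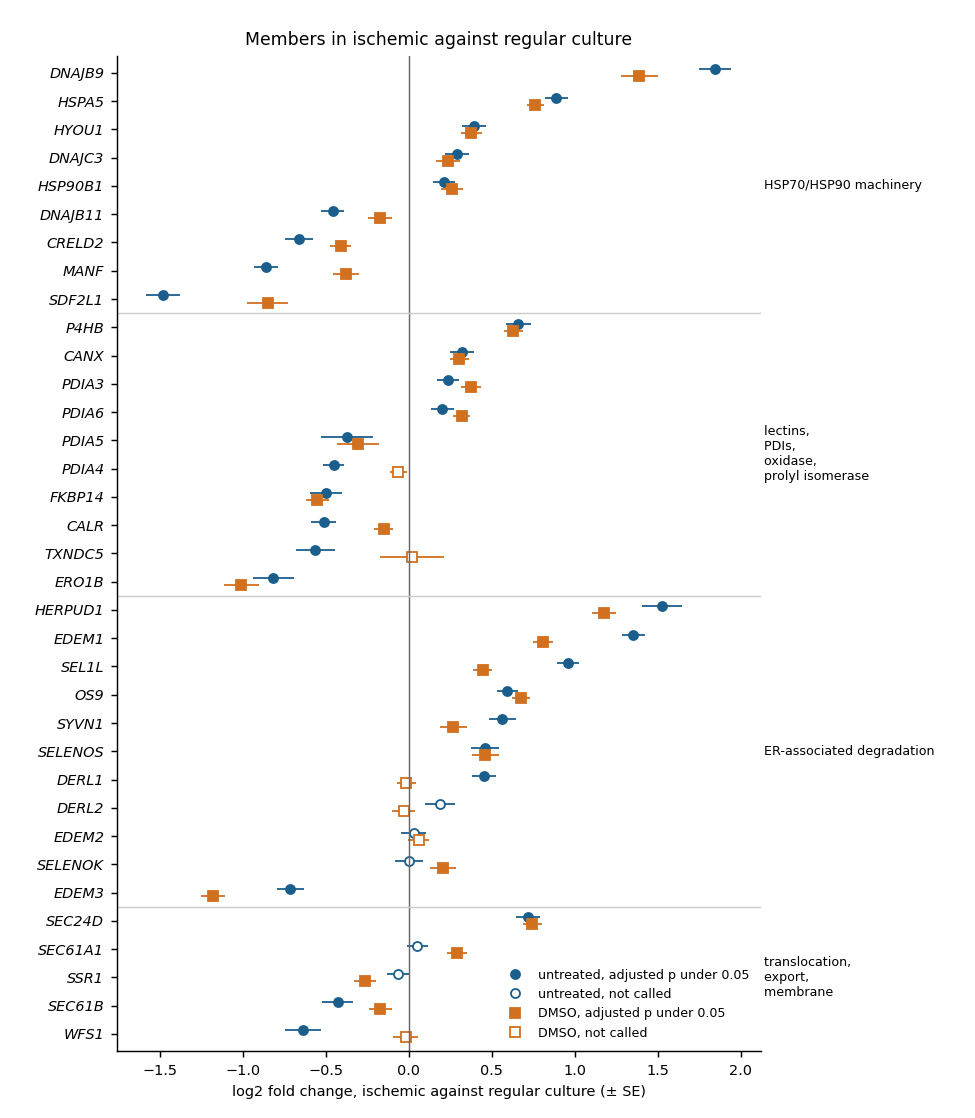
Log2 fold change of each member in ischemic against regular culture (x axis, ± SE), for untreated (circles) and DMSO-treated cells (squares), grouped by role, with 2 libraries per group and filled symbols for adjusted p under 0.05. DNAJB9, HERPUD1 and EDEM1 lie farthest to the right in both experiments, and SDF2L1, EDEM3 and ERO1B lie far to the left.

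Among the HSP70 and HSP90 machinery, BiP and its cofactors moved in both directions. All 9 genes of the group passed the test in both experiments, 5 higher and 4 lower. Of all genes, 35.2% were called higher and 35.2% lower untreated, and 34.4% and 35.2% with DMSO. HSPA5, the HSP70 chaperone BiP (chr9:125234853-125241343, minus strand, GRCh38.p14), was 9.92 and 9.97 log2 CPM in the regular untreated libraries and 10.85 and 10.82 in the ischemic ones. With DMSO it was 9.83 and 9.86 in regular and 10.59 and 10.63 in ischemic culture. Both ischemic libraries thus lay above both regular ones in each experiment, 1.85-fold (log2 0.89, SE 0.07, adjusted p = 2.92e-07) and 1.70-fold (log2 0.76, SE 0.05, adjusted p = 1.01e-09) on the fitted scale. DNAJB9 (ERdj4), a J protein that delivers misfolded chains to BiP and restrains IRE1α, showed the steepest rise of any member. It was 3.48 and 3.42 in regular and 5.34 and 5.25 in ischemic untreated libraries, and 3.53 and 3.48 against 4.76 and 5.01 with DMSO. The groups did not overlap, and the log2 fold changes were 1.85 (SE 0.10, adjusted p = 6.05e-09) and 1.39 (SE 0.11, adjusted p = 4.64e-09).

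In the opposite direction, SDF2L1, a partner of the BiP cofactor DNAJB11, fell more than any other member of the group. It was 5.05 and 4.90 in regular and 3.53 and 3.45 in ischemic untreated libraries, and 5.08 and 5.06 against 4.08 and 4.36 with DMSO. The groups were again separate, with log2 fold changes of -1.48 (SE 0.10) and -0.85 (SE 0.12). MANF, a secreted ER stress protein that binds BiP, was 6.44 and 6.41 in regular and 5.51 and 5.62 in ischemic untreated libraries. With DMSO it was 6.45 and 6.37 in regular and 6.06 and 6.00 in ischemic culture, a smaller decrease (log2 -0.38 against -0.86 untreated). The difference between the experiments was not tested. CRELD2, another secreted ER stress protein, and DNAJB11 (ERdj3) fell as well, by 0.66 and 0.46 on the log2 scale untreated. HYOU1 (GRP170, a nucleotide exchange factor of BiP), HSP90B1 and DNAJC3 (p58IPK) rose by less than 0.40. Of these, HSP90B1 turned to -0.02 untreated and -0.16 with DMSO under quantile normalization. The 4 genes of the group that fell have transcripts of 825 to 1640 bases and the 5 that rose 2409 to 5590. Members under 1500 bases had a median log2 fold change of -0.54 untreated and -0.27 with DMSO, and longer members 0.21 and 0.26. Over all genes the medians were -0.17 and 0.02 below that length and 0.02 and -0.01 above it. The limit was set after the values were seen. The part of transcript length in these changes was not tested.

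The lectin chaperones, disulfide isomerases and folding enzymes moved apart. In the untreated comparison 4 of the 10 were higher and 6 lower, against 35.2% and 35.2% of all genes. With DMSO 4 were higher and 4 lower, against 34.4% and 35.2%, and 2, PDIA4 and TXNDC5, did not pass. P4HB was 10.73 and 10.75 in regular and 11.43 and 11.37 in ischemic untreated libraries, and 10.75 and 10.82 against 11.40 and 11.43 with DMSO. It rose 1.58-fold (adjusted p = 7.02e-06) and 1.55-fold (adjusted p = 3.18e-08). The lectins calnexin and calreticulin went opposite ways: CANX rose (log2 0.32 untreated, 0.30 with DMSO) and CALR fell (log2 -0.51 and -0.15). Under quantile normalization the DMSO value of CANX turned to -0.09. ERO1B, an ER oxidase that reoxidises protein disulfide isomerase, fell in both experiments. It was 3.72 and 3.73 in regular and 2.98 and 2.83 in ischemic untreated libraries, and 4.08 and 3.99 against 3.01 and 3.05 with DMSO, a log2 change of -0.82 (SE 0.12) and -1.01 (SE 0.10). FKBP14, a prolyl isomerase that acts on collagen, fell by 0.50 and 0.55 on the log2 scale. PDIA3 and PDIA6, both disulfide isomerases, rose (log2 0.20 to 0.38), though PDIA6 was at -0.0043 untreated under quantile normalization. Of their exon bases, 16.5% in PDIA3 and 45.3% in PDIA6 are overlapped by listed genes on the opposite strand, and the library kit does not mark strand. These neighbours, ELL3 and ATP6V1C2, did not exceed 2.08 and 1.32 log2 CPM, far below both members. The pseudogene PDIA3P1 was listed at 5.31 to 5.68.

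Of the 11 ERAD genes, 7 rose in each experiment, EDEM3 alone fell and 3 did not pass, against 35.2% (untreated) and 34.4% (DMSO) of all genes called higher. The 7 were not all the same genes. DERL1 rose untreated, from 6.08 and 6.06 to 6.58 and 6.47, but was 6.13 and 6.17 against 6.15 and 6.12 with DMSO. It was called lower in the VX745 and MK25 ischemia comparisons. SELENOK was called higher with DMSO and not untreated. The 7 of the untreated comparison were called higher under every scaling tried, and with DMSO 5 of 7 were: HERPUD1, SEL1L, EDEM1, OS9 and SELENOS. HERPUD1 (HERP), a membrane protein that organises the retrotranslocation complex, was 4.05 and 4.14 in regular and 5.83 and 5.40 in ischemic untreated libraries. With DMSO it was 4.54 and 4.59 in regular and 5.70 and 5.78 in ischemic culture, and the increases were 2.88-fold (adjusted p = 3e-07) and 2.26-fold (adjusted p = 1.82e-10). EDEM1, a mannosidase-like protein that marks misfolded glycoproteins, was 6.18 and 6.25 against 7.61 and 7.53 untreated, and 6.55 and 6.49 against 7.33 and 7.33 with DMSO. Its groups were separate in both experiments, with log2 fold changes of 1.35 (SE 0.07) and 0.81 (SE 0.06). OS9, an ERAD lectin, was 7.71 and 7.73 against 8.30 and 8.32 untreated and 7.97 and 7.86 against 8.56 and 8.61 with DMSO. SEL1L, the adaptor of the ubiquitin ligase, rose by 0.96 and 0.44 on the log2 scale, and SYVN1 (HRD1), the ligase itself, by 0.56 and 0.27. SELENOS, a selenoprotein of the retrotranslocation complex, rose by 0.46 in both. DERL2, of the Derlin family that takes part in retrotranslocation, had log2 fold changes of 0.19 untreated (SE 0.09, adjusted p = 0.0895) and -0.03 with DMSO (SE 0.07, adjusted p = 0.691), neither past the threshold.

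The 3 members of the EDEM family did not move together. EDEM3 was 6.45 and 6.54 in regular and 5.87 and 5.69 in ischemic untreated libraries, and 6.46 and 6.61 against 5.32 and 5.39 with DMSO. That is a fall of 1.64-fold (adjusted p = 6.12e-06) and 2.26-fold (adjusted p = 1.05e-10), opposite to EDEM1. EDEM2 stayed within 5.70 to 6.07 in all 16 libraries and was the sole member called in none of the 4 ischemia comparisons. These directions of EDEM1 and EDEM3 held under median centring, quantile normalization and voom.

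Of the 5 genes of translocation, export and the ER membrane, SEC24D, a cargo-binding subunit of the COPII coat, was the only member that rose in both experiments. It was 5.68 and 5.73 in regular and 6.43 and 6.42 in ischemic untreated libraries, and 5.87 and 5.92 against 6.63 and 6.64 with DMSO (log2 0.72 and 0.74). SEC61B, the beta subunit of the translocation channel, fell, from 6.16 and 5.90 to 5.57 and 5.63 untreated and from 6.19 and 6.15 to 6.08 and 5.91 with DMSO. The second change is small (log2 -0.17, SE 0.07, adjusted p = 0.0327), although the groups did not overlap. WFS1, an ER membrane protein, fell untreated (log2 -0.64) and had a log2 fold change of -0.02 with DMSO (SE 0.08, adjusted p = 0.84). SEC61A1, the pore-forming subunit of the channel, had a log2 fold change of 0.05 untreated, which did not pass, and rose by 0.29 with DMSO (-0.04 under quantile normalization).

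**Figure D2:**
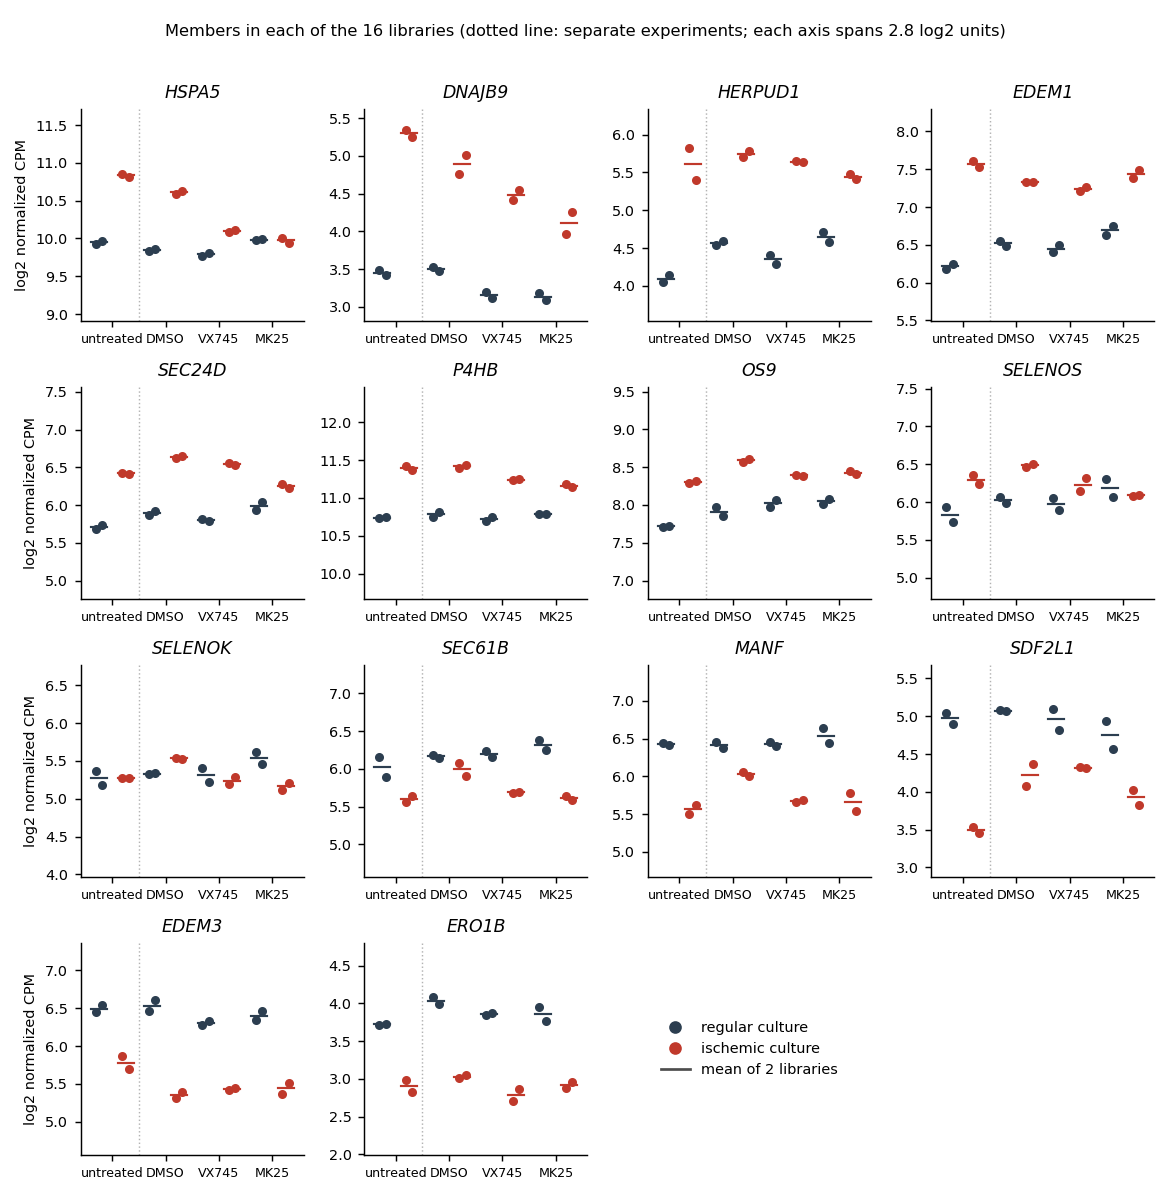
Log2 normalized CPM (y axis) of 14 members in each of the 16 libraries, with regular culture in dark blue, ischemic culture in red and bars for the mean of 2 libraries; the dotted line separates the experiments. For HSPA5 the gap between cultures is open in untreated and DMSO libraries, narrower with VX745 and closed with MK25, where regular libraries read 9.97 and 9.99 and ischemic ones 10.01 and 9.94.

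The next comparison asked whether blocking p38 or MK2 altered these genes in ischemic cells. With VX745, 19 members were lower and 1 higher than with DMSO in ischemic culture, against 14.9% and 14% of all genes. With MK25, 22 were lower and none higher, against 22% and 19.8%. The members' median log2 fold change was -0.18 with VX745 and -0.20 with MK25, and that of all genes was 0.00 in both. Both comparisons use the same DMSO libraries. Most of the differences were small: at a fold change of 1.5 or more no member passed with VX745 and 2, HSPA5 and DNAJB9, passed with MK25. The count with VX745 fell to 12 without the first ischemic DMSO library, 8 without the second, 6 without the first ischemic VX745 library and 11 without the second. Scaling mattered too. Voom on library totals put the median of all genes at 0.12 and 0.13 and left 4 members lower and 1 higher with VX745, and 12 lower and 3 higher with MK25. Under every scaling tried, HSPA5, DNAJB9, DNAJC3 and MANF were lower with VX745 and WFS1 was higher. With MK25 those lower under every scaling were HSPA5, DNAJB9, DNAJC3, MANF, HERPUD1, SELENOS, SELENOK, SEC61B, SSR1 and SEC24D.

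HSPA5 showed the clearest difference. In ischemic culture it was 10.59 and 10.63 with DMSO, 10.09 and 10.11 with VX745 and 10.01 and 9.94 with MK25, so both DMSO libraries lay above all 4 libraries with an inhibitor. The log2 difference was -0.51 with VX745 (SE 0.05, adjusted p = 4.27e-06) and -0.63 with MK25 (SE 0.05, adjusted p = 1.32e-07). The difference between the inhibitors, -0.12 (SE 0.05), did not pass (adjusted p = 0.12). DNAJB9 was 4.76 and 5.01 with DMSO, 4.41 and 4.55 with VX745 and 3.97 and 4.26 with MK25 in ischemic culture. It was lower by 0.41 with VX745 (adjusted p = 0.0104) and by 0.77 with MK25 (adjusted p = 3.46e-05), and lower with MK25 than with VX745 (log2 -0.37, adjusted p = 0.0271). SEC24D, at 6.63 and 6.64 with DMSO, was 6.55 and 6.53 with VX745, which did not pass, and 6.29 and 6.22 with MK25. Directly compared, MK25 was below VX745 by 0.29 (adjusted p = 0.00178). WFS1 was the member raised by VX745, from 4.87 and 4.96 to 5.29 and 5.13 (log2 0.29, SE 0.08, adjusted p = 0.00807).

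In ischemic culture MK25 against VX745 gave 3 members lower (DNAJB9, SDF2L1 and SEC24D) and 1 higher (EDEM1), against 10.2% and 8.22% of all genes. Each of these counts rests on few libraries: without the first or the second ischemic VX745 library 1 member was called. A fit to the compared groups alone called 8, of which 7 were lower.

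In regular culture few members were called. VX745 against DMSO called no member with limma, against 0.178% of all genes higher and 0.157% lower; 4 members had an unadjusted p under 0.05, all lower, and voom called none. Without the first regular DMSO library 1 member was called. MK25 called 4, HSP90B1, CALR and PDIA6 higher (log2 0.20 to 0.25) and DNAJB9 lower, from 3.53 and 3.48 to 3.18 and 3.10, against 7% and 5.21% of all genes. A fit to the compared groups alone called none. Leaving out the second regular DMSO library left 0, the first or second regular MK25 library 2 or 1, and either ischemic VX745 library, which enters only through the shared variance, 2.

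With each inhibitor present in both cultures, ischemia still moved most members, as it did most of all genes. The shares of members called higher and lower with VX745, 37.1% and 34.3%, were close to the background. With MK25 they were 28.6% and 45.7%. With VX745, 13 were higher and 12 lower in ischemic culture, against 34% and 32.6% of all genes, and with MK25, 10 were higher and 16 lower, against 33.5% and 33.7%. DERL2 was among the latter (log2 -0.27, SE 0.07, adjusted p = 0.0019). The members' medians were -0.01 and -0.09. After quantile normalization the VX745 split was 10 higher and 14 lower, and with voom 9 higher and 15 lower. The MK25 split was 8 and 18 after quantile normalization and 8 and 19 with voom. The order of the members was similar in all 4 ischemia comparisons, none of which share libraries: Pearson's r across the 35 genes lay between 0.902 and 0.968. Across all 4, 10 members were higher (HYOU1, DNAJB9, CANX, P4HB, HERPUD1, SEL1L, SYVN1, EDEM1, OS9 and SEC24D) and 9 were lower (DNAJB11, SDF2L1, MANF, CRELD2, CALR, ERO1B, FKBP14, EDEM3 and SEC61B). Under quantile normalization CANX turned to -0.09 with DMSO and -0.02 with VX745. Of the 18 members higher with DMSO, 8 were not called higher with MK25, and 2 of those, HSP90B1 and SELENOK, were lower. How many of all genes were called alike in all 4, or met these conditions, was not counted. The differences themselves are tested as interactions below. The summed share of the members in all reads moved from 1.04% and 1.03% in regular to 1.12% and 1.13% in ischemic culture with DMSO, from 1.01% and 1.02% to 1.04% and 1.05% with VX745, and from 1.09% and 1.11% to 1.04% and 1.05% with MK25.

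**Figure D3:**
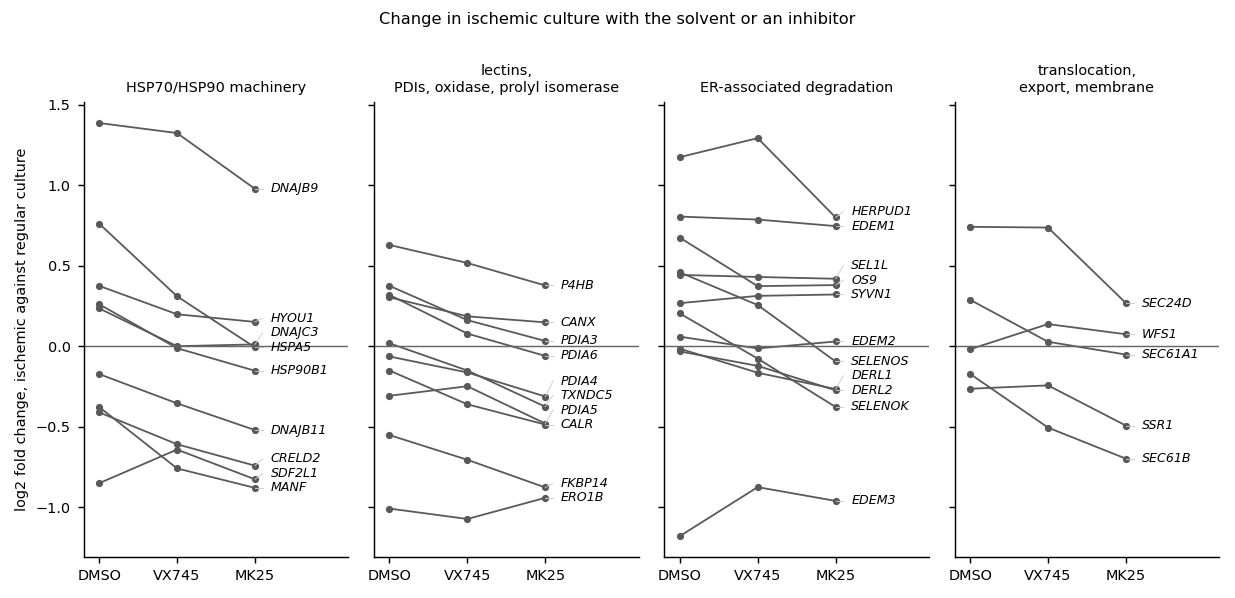
Log2 fold change in ischemic against regular culture (y axis) with DMSO, VX745 and MK25, a line for each member, in panels by role. Most lines slope down towards MK25; HSPA5 goes from 0.76 through 0.31 to -0.01, while those of EDEM1, SEL1L and SYVN1 stay nearly level.

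Whether the ischemic change itself differed with an inhibitor was tested as an interaction, which is the change with inhibitor minus the change with DMSO. For MK25, 19 members had a negative interaction and none a positive interaction, against 13.9% and 10.5% of all genes. For VX745, 6 were negative and none positive, against 6% and 5.78%. EDEM3, with a VX745 interaction of 0.30 (adjusted p = 0.055), was the only member that became positive under any alternative: with VX745 under the replicate block, with voom, in the compared groups alone and without the first regular DMSO, either regular MK25 or either ischemic MK25 library, with MK25 under voom, and with both at an unadjusted p under 0.05. The MK25 count was 9 after quantile normalization and 11, 10 of them negative, with voom. The interactions of HSPA5, MANF, SELENOS, SELENOK, SEC61B and SEC24D were negative under every scaling tried. The VX745 count depended on single libraries: it was 1 without the first ischemic DMSO, either ischemic VX745 or the second regular DMSO library, 2 without the second ischemic DMSO or the first regular VX745 library, 3 without the second regular VX745 library and 13 without the first regular DMSO library. It was 0 after quantile normalization.

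HSPA5 had the largest interaction with MK25, -0.77 (SE 0.08, adjusted p = 2.8e-06), and with VX745, -0.45 (SE 0.08, adjusted p = 0.00181). The next largest interactions with MK25 were those of the 2 selenoproteins of ERAD. SELENOK was 5.32 and 5.34 in regular and 5.54 and 5.53 in ischemic culture with DMSO, but 5.62 and 5.46 against 5.12 and 5.21 with MK25. The rise with DMSO was therefore a fall with MK25, with an interaction of -0.58 (SE 0.11, adjusted p = 0.00103). With voom the DMSO rise of SELENOK was -0.02. SELENOS was 6.07 and 5.99 against 6.47 and 6.50 with DMSO, and 6.31 and 6.06 against 6.08 and 6.10 with MK25, an interaction of -0.55 (SE 0.11, adjusted p = 0.00199). SEC61B was 6.38 and 6.24 in regular and 5.64 and 5.59 in ischemic culture with MK25, a deeper fall than with DMSO (interaction -0.53, adjusted p = 0.000858), and MANF, at 6.64 and 6.44 against 5.77 and 5.54, had an interaction of -0.50 (adjusted p = 0.00306). These 4 are among the 6 members with transcripts under 1500 bases, a limit set after the values were seen. The 6 had a median MK25 interaction of -0.51 (5 negative by the test) and the 29 longer members -0.25 (14 negative), and over all genes the medians were -0.16 below and 0.02 above that length. For the ischemic change with MK25 itself, the medians were -0.72 and -0.01 for the shorter and longer members and -0.13 and 0.02 over all genes. The part of transcript length in these results was not tested. By contrast the values for the core of the ligase and for EDEM1 were small: SEL1L had an interaction of -0.02, SYVN1 0.05 and EDEM1 -0.06, none past the threshold (adjusted p between 0.65 and 0.86).

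**Figure D4:**
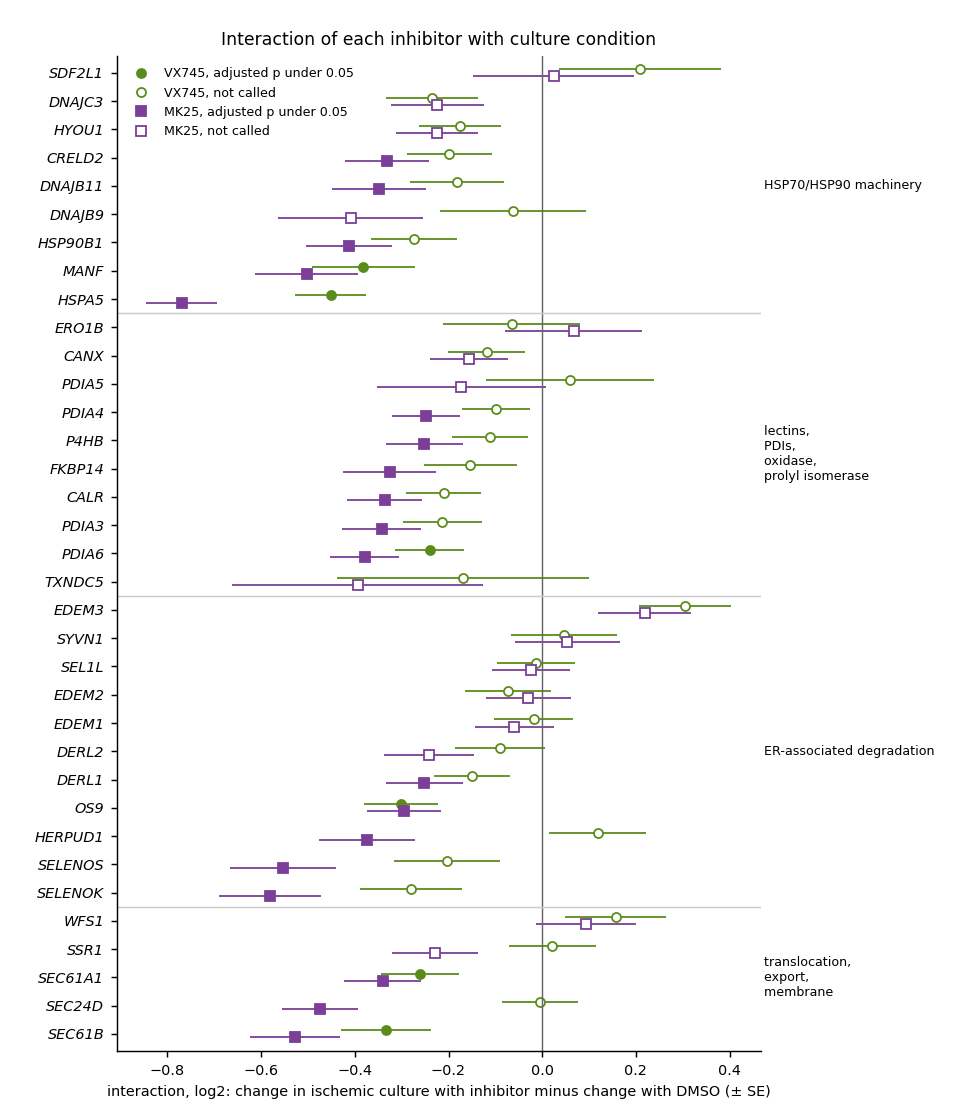
Interaction of VX745 (circles) and MK25 (squares) with culture for each member on the log2 scale (x axis, ± SE), filled where adjusted p is under 0.05. The 19 filled MK25 symbols all lie below 0, from -0.25 to -0.77, and the 6 filled VX745 symbols lie between -0.24 and -0.45.

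The sensors and factors of the UPR, of which 9 of 10 were listed, had larger changes, with a median log2 fold change of 1.54 untreated and 1.77 with DMSO. In each of the untreated, DMSO, VX745 and MK25 ischemia comparisons 7 of the 9 were higher. Of all genes, 35.2%, 34.4%, 34% and 33.5% were higher in these. XBP1, the factor spliced by IRE1α, rose by 2.82 untreated and 2.43 with DMSO on the log2 scale, and ERN1, which encodes IRE1α, by 2.15 and 2.07. ATF4 rose by 1.54 and 1.77, DDIT3 (CHOP) by 2.12 and 1.84 and PPP1R15A (GADD34) by 3.21 and 3.08. MBTPS1, the protease that cleaves ATF6 first, fell by 0.39 and 0.46. In ischemic culture XBP1 was lower with VX745 (log2 -0.68) and with MK25 (log2 -1.17), and its interaction with MK25 was -1.40 (SE 0.09, adjusted p = 1.1e-08). Of the 9, 5 were lower with MK25 than with DMSO in ischemic culture, against 22% of all genes. EIF2AK3 was higher (log2 0.35, SE 0.08, adjusted p = 0.00144), as were 19.8% of all genes. In regular culture MK25 raised 5 of the 9 and lowered none, against 7% and 5.21% of all genes. The 5 were DDIT3 (log2 0.57), ATF4 (0.47), EIF2AK3 (0.27), PPP1R15A (0.23) and XBP1 (0.23). A fit to the compared groups alone called DDIT3 and ATF4, as did leaving out the first regular MK25 library, and without either regular DMSO library 3 were called. ERN1 had interactions of -0.19 and -0.24, which did not pass. These are levels of all XBP1 transcripts, and splicing was not measured here.

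Other genes of the pathway were counted in lists, to be read against 35.2% of all genes called higher and 35.2% lower in untreated cells and 34.4% and 35.2% with DMSO. Of 24 other folding genes, 12 were higher and 5 lower in ischemic untreated cells and 13 and 8 with DMSO. Of 17 genes of glycan attachment and trimming, 9 were higher and none lower untreated, and 8 higher and 1 lower with DMSO. Of 17 listed other degradation genes, 6 rose and 6 fell untreated, and 9 rose and 8 fell with DMSO. Of 18 other translocation genes, 4 rose and 9 fell untreated and 4 rose and 7 fell with DMSO, and of 21 genes of export and retrieval, 7 rose and 8 fell in each. The MK25 interaction was negative for 12 of the 18 other translocation genes (median -0.33), 8 of the 17 glycan genes (-0.22), 5 of the 24 other folding genes (-0.14), 2 of the 17 other degradation genes (-0.10) and 2 of the 21 export and retrieval genes (-0.12), and positive for none of them, against 13.9% and 10.5% of all genes.

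Exact matches to the ERSE and ERSE-II, read in a single promoter per gene, did not sort the members by direction. Of the 6 members with an ERSE upstream, HSPA5, HSP90B1 and CANX rose in untreated and DMSO ischemia, and CALR, CRELD2 and ERO1B fell. Of the 3 with an ERSE-II, HERPUD1 and HYOU1 rose and SDF2L1 fell. Under quantile normalization HSP90B1 was below 0 in both and CANX in the DMSO comparison. The genes that rose most, DNAJB9, EDEM1 and HERPUD1, include 1 with a match among these 2 motifs. Variants of the motifs and other transcript starts were not searched, so a missing match does not mean that a gene lacks such an element.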

How the data were processed

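RNA-seq libraries were made from LN229 cells with SMART-Seq mRNA HT and Nextera XT kits. The authors aligned trimmed reads to GRCh38 with HISAT2 and normalized them with edgeR; the counting program was not given in the sources used here. The 2 deposited tables hold log2 CPM values, normalized by the authors in each experiment, with Entrez identifiers, of which 99.4% and 99.3% matched a symbol. Each deposited log2 value was turned back into whole reads and used for depth and for voom. Recovered values of genes with fewer reads lay within 0.1 read of a whole number, and those of the most abundant genes were not checked. The log2 values of a gene with 3 reads lay between -2.71 and -2.16, a limit of counting error only.

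The main test was limma 3.58.1 (R 4.3.3) with a variance trend, fitted to all genes of each experiment, with Benjamini-Hochberg adjustment. The authors used edgeR, which needs counts. Fold changes are on the deposited log2 scale, which understates changes of genes with few reads. The script was tested on simulated data. The deviations of same-numbered libraries correlated at 0.185 in the first experiment (1 pair of groups) and -0.10 to 0.178 in the second (15 pairs of groups, median -0.01). Correlations were of both signs in the second experiment, and the labels tie the numbers to no culture or batch, so the main fit used no pairing. Replicates differed beyond sampling noise (chi-square per gene 3.29 to 9.40).

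All 35 genes are named, by role; values in each library are given for members called in both the untreated and DMSO ischemia comparisons at a log2 change of at least 0.5 in each, or called at that size in an inhibitor or interaction comparison. The genes and lists were chosen with earlier results of these data known. Alternatives were median centring, quantile normalization, voom, no variance trend, a replicate block, a filter on low values, a fold change of 1.5, an unadjusted p, only the groups compared, and each library left out.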

Additional observations from a re-analysis of the deposited data

Results flagged for a closer look

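The change in ischemic culture differed between an inhibitor and DMSO, by the test of the interaction itself (limma, adjusted p under 0.05), for 6 members with VX745 and 19 with MK25. All 25 interactions were negative, which means that the change with the inhibitor lay below the change with DMSO. Of all genes, 6% were negative and 5.78% positive for VX745, and 13.9% and 10.5% for MK25. Under every scaling tried, 0 members stayed negative with VX745 and 6 with MK25, and P4HB turned to 0.0055 with MK25 under quantile normalization. With VX745 the log2 interactions were those of HSPA5 (-0.45), MANF (-0.38), SEC61B (-0.33), OS9 (-0.30), SEC61A1 (-0.26) and PDIA6 (-0.24). With MK25 they were those of HSPA5 (-0.77), SELENOK (-0.58), SELENOS (-0.55), SEC61B (-0.53), MANF (-0.50), SEC24D (-0.47), HSP90B1 (-0.41), PDIA6 (-0.38), HERPUD1 (-0.37), DNAJB11 (-0.35), PDIA3 (-0.34), SEC61A1 (-0.34), CALR (-0.34), CRELD2 (-0.33), FKBP14 (-0.33), OS9 (-0.29), P4HB (-0.25), DERL1 (-0.25) and PDIA4 (-0.25). The interactions of both inhibitors use the same DMSO libraries. An interaction can come from a difference in either culture. Of those listed for MK25, HSP90B1, CALR and PDIA6 were also called higher with MK25 than with DMSO in regular culture, and the others were not called there. The mean of HSP90B1 was 9.79 with DMSO and 10.04 with MK25 in regular culture, and 10.05 and 9.89 in ischemic culture. For MK25 the adjusted p lay between 2.8e-06 and 0.0326, and for VX745 between 0.00181 and 0.0488.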

How the results depend on the processing

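With 2 libraries per group, calls of small changes rest on few degrees of freedom, and the scaling between libraries decides many of them. Voom scaled to library totals put the median of all genes at -0.18 (untreated), -0.23 (DMSO) and -0.10 (VX745 and MK25) in the ischemia comparisons and at 0.12 to 0.13 in the inhibitor comparisons in ischemic culture and the interactions. Of 185 calls of a member in a comparison, 181 held under median centring, 132 under quantile normalization and 128 under voom, where another 37 and 56 lost significance; the cause was not tested.

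Members called in the untreated, DMSO, VX745 and MK25 ischemia comparisons numbered 30, 29, 25 and 26, and 14, 10, 10 and 10 at a fold change of at least 1.5. In ischemic culture VX745 against DMSO gave 20, and 0 at that fold change, 10 after quantile normalization and 5 with voom. MK25 against DMSO gave 22, and 2 at that fold change. In regular culture VX745 gave 0, and 4 at an unadjusted p under 0.05, while MK25 gave 4, and 11 at an unadjusted p, 0 at the fold change, 0 without the variance trend and 0 in the compared groups alone. MK25 against VX745 gave 4, and 11 unadjusted, 0 at the fold change, 1 without the trend and 8 in the compared groups alone. The VX745 interaction gave 6, and 13 unadjusted, 0 at the fold change, 0 after quantile normalization, 1 without the trend and 2 with voom. The MK25 interaction gave 19, and 1 at the fold change, 9 after quantile normalization and 11 with voom.

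Leaving out each library in turn gave 27 to 29 (untreated), 24 to 29 (DMSO), 21 to 25 (VX745) and 23 to 27 (MK25) in the ischemia comparisons, 6 to 20 and 15 to 24 for VX745 and MK25 against DMSO in ischemic culture, 0 to 1 and 0 to 6 in regular culture, 1 to 5 for MK25 against VX745, and 1 to 13 and 13 to 20 for the VX745 and MK25 interactions.

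The sign of 17 called values turned. Under quantile normalization these were HSP90B1 (-0.0150) and PDIA6 (-0.0043) untreated, CANX (-0.0881), HSP90B1 (-0.158) and SEC61A1 (-0.0439) with DMSO, and CANX (-0.0152) with VX745 in the ischemia comparisons. They were also CALR (0.0085), PDIA3 (0.0324), PDIA6 (0.0047) and SEC61A1 (0.0108) for VX745 against DMSO, HYOU1 (0.0418), OS9 (0.0121), PDIA3 (0.0862), PDIA4 (0.0384) and PDIA6 (0.0349) for MK25 against DMSO in ischemic culture, and P4HB (0.0055) for the MK25 interaction. With voom it was SELENOK (-0.0186) with DMSO in ischemia.

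A fit with the replicate number as a block, gave 29, 29, 25 and 26 members in the ischemia comparisons, 20 and 22 for the inhibitors in ischemic culture, 0 and 4 in regular culture, 4 for MK25 against VX745 and 7 and 19 for the interactions, and 184 of the 185 calls held. Because the ischemic DMSO and MK25 libraries deviated with a correlation of -0.10, the crossed pairing was added after seeing the data and gave 23 members for MK25 against DMSO. The promoter matches were the same in the upstream 250 bases.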
